A study of Mus musculus with 4 samples.

Results

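The 5 genes described here encode the isomerase, the desaturase and the 3 reductases that reshape the sterol rings late in cholesterol synthesis: Tm7sf2, Lbr, Ebp, Sc5d and Dhcr7. They were taken by symbol from the 47729 gene rows of a read count table of mouse induced regulatory T (iTreg) cells, and each symbol matched 1 row. All 5 had higher levels in both libraries of iron-treated cells than in both control libraries, as did 30.1% of the 13732 genes tested. Tm7sf2, Dhcr7 and Sc5d rose 1.85-fold, 1.67-fold and 1.58-fold. Lbr rose by 15.5%, a call that was lost in 5 of 12 alternative analyses. Ebp, whose mean was 14.8% higher, did not pass the test after adjustment, but passed in 2 of the 12 alternatives.

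The cells were CD4 T cells of C57BL/6 mice, labelled as spleen, and the study's methods describe naïve cells from spleen and lymph nodes activated through CD3 and CD28. Every culture, controls included, received TGF-β and IL-2 together with blocking antibodies to IL-4 and to IFN-γ. FeSO4 cultures received ferrous sulfate at 50 µM and Mock cultures received PBS, each for 4 days, and each group had 2 libraries. The sources used here do not say whether cells were sorted before RNA extraction, and in bulk RNA fewer cells of a type and less RNA per cell cannot be told apart.

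Cholesterol is built from acetyl-CoA through mevalonate, squalene and lanosterol, and the ring of lanosterol is then trimmed and its double bonds are moved or removed. The demethylase Cyp51 leaves a double bond next to carbon 14, which the sterol C14-reductases Tm7sf2 (endoplasmic reticulum) and Lbr (inner nuclear membrane) can both remove. Ebp shifts the remaining ring double bond, Sc5d adds a new one at carbon 5, and Dhcr7 removes the one at carbon 7 as the last ring step. Activated T cells draw on this pathway for new membrane, and most of its genes are known targets of the transcription factor SREBP-2, which often acts together with NF-Y.

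The libraries held 35183187 to 40859178 reads assigned to genes. The biological coefficient of variation was 8.24%, and each SD comes from only 2 libraries. No source used here ties the libraries to single animals, so the p-values measure the spread between these libraries only. T cell genes were high in all 4 libraries (the 5 markers Cd3e, Cd3d, Cd4, Foxp3 and Il2ra summed to 3230 to 3470 CPM in Mock and 3240 to 3430 CPM in FeSO4, where CPM is the usual count scaled by library size after TMM). The NK cell markers, Klrb1c and Ncr1, were at 0 counts in all 4 libraries, the 3 B cell markers summed to 2.53 to 3.23 CPM in Mock and 2.38 to 2.57 CPM in FeSO4, and the 2 CD8 markers summed to 9.03 to 9.8 CPM in Mock and 9.96 to 11.0 CPM in FeSO4. Among the 4 myeloid markers, Csf1r and Itgam had at most 7 counts in any library, Lyz2 had 164 and 8 counts in Mock and 0 in FeSO4, and Cst3, which many cell types express, made up most of the sum of 87.2 to 97.7 CPM in Mock and 115 to 117 CPM in FeSO4. Foxp3 was at 587 and 693 CPM in Mock against 376 and 472 CPM in FeSO4, and the red cell gene Hba-a1 at 19.6 to 24.5 CPM in Mock against 32.5 to 37.5 CPM in FeSO4. The part of these shifts in the values below was not tested.

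The promoters of the 5 genes were read from RefSeq on GRCm38.p6, from 250 bases before to 50 bases after each annotated start site (7 promoters, because Dhcr7 has 3 start sites). The NF-Y box, CCAAT or ATTGG on the other strand, was found in 5 of the 7 promoters and in at least 1 promoter of each of the 5 genes. Over the whole table, 37.4% of 32851 promoters and 41.1% of 27025 genes held it. It was also in 5 of the 5 squalene to zymosterol genes and 6 of the 7 mevalonate genes that had a promoter in the table, so it is not particular to the late genes. The stretches below are shown because this short motif occurs upstream of every gene of the group. The capitals mark the box and the surrounding bases are the gene's own strand.
Tm7sf2: ctcccagcgctgATTGGctactgtgctggg
Lbr: actggccctcgaCCAATcgccagcgccggc
Ebp: atccctgtactgATTGGttcgtcagattcg
Sc5d: cgccggctgctgATTGGccggctgcctgca
Dhcr7: aatccacttccgATTGGtcgtctgtgacct
The box began 47 bases before the start of Tm7sf2 (chr19:6067880-6067909, minus strand), 68 before Lbr (chr1:181842452-181842481, minus strand), 55 before Ebp (chrX:8193550-8193579, minus strand), 24 before Sc5d (chr9:42264307-42264336, minus strand) and 49 before one of the Dhcr7 start sites (chr7:143830153-143830182, plus strand). Lbr, Ebp and that Dhcr7 promoter each held a second box elsewhere in the promoter.

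The GC box, GGGCGG or CCGCCC, was likewise found for all 5 genes, in 6 of the 7 promoters, against 35.7% of all promoters, and for 5 of 5 squalene to zymosterol genes and 5 of 7 mevalonate genes. The SREBP site TCACNCCAC (GTGGNGTGA on the other strand) was in none of the 7, and in 1.24% of all promoters. It was in 0 of 5 squalene to zymosterol genes, 1 of 7 mevalonate genes and 0 of 7 genes of SREBP control. Its absence is thus not particular to the late genes. The E-box CACGTG, a palindrome, was in 7.15% of all promoters and in those of Sc5d and of one further Dhcr7 start site. The HIF core ACGTG, which every such E-box contains, was searched on both strands and found in 19.6% of all promoters. Among the 5 genes it occurred only within these E-boxes of Sc5d and Dhcr7. The E-box of Sc5d is shown, in capitals, as the one in the same promoter as an NF-Y box.
Sc5d E-box: ctacgcggcgacCACGTGaccgccgcgacc
This stretch lies at chr9:42264381-42264410 on the minus strand, with the E-box beginning 98 bases before the start site. Such matches describe letters in a window and do not show binding.

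The first step of the group, removal of the double bond at carbon 14, has both Tm7sf2 and Lbr. Tm7sf2 (ENSMUSG00000024799, chromosome 19, 6062821 to 6067850, GRCm38.p6, minus strand) was at 7.81 and 7.63 CPM in the Mock libraries, against 12.8 and 15.6 CPM with FeSO4. The Mock libraries lay close together, and both FeSO4 libraries lay above them with a wider spread. The mean went from 7.72 ± 0.131 to 14.2 ± 2.02 CPM (SD, n = 2 each). The log2 fold change was 0.88 ± 0.15 (SE, 95% interval 0.56 to 1.21), with an adjusted p of 0.000745 in edgeR's quasi-likelihood test. Of the 13732 genes tested, 96.6% had a smaller log2 fold change. Tm7sf2 was also the gene with the fewest reads of the 5, at 317 and 319 counts in Mock and 438 and 579 counts in FeSO4, where counting error alone gives a coefficient of variation of 4.16 to 5.62%.

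Part of the Tm7sf2 gene model is shared. On the mm9 annotation, 532 bases of its exons (15.3%) also belong to exons of 1110014N23Rik on the same strand, so reads there can be lost or moved between these genes. That neighbour was at 62.0 and 49.9 CPM in the Mock libraries, against 58.4 and 53.6 CPM with FeSO4, and its log2 fold change was 0.00 ± 0.10 (SE) with an adjusted p of 0.996. Its groups overlapped, while those of Tm7sf2 did not. The part of reads from the shared exons in the Tm7sf2 values was not tested.

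Lbr, the lamin B receptor, is both a C14-reductase and an anchor of heterochromatin at the nuclear lamina. It lies on chromosome 1 (ENSMUSG00000004880, 181815315 to 181842401, GRCm38.p6, minus strand). Lbr was at 229.9 and 246.8 CPM in the Mock libraries, against 274.8 and 275.9 CPM with FeSO4. Both FeSO4 libraries were above both Mock libraries, and the gap between the groups was larger than the distance between the Mock libraries. The mean went from 238 ± 11.9 to 275 ± 0.814 CPM (SD, n = 2 each). Its log2 fold change was 0.21 ± 0.06 (SE, 95% interval 0.08 to 0.34), with an adjusted p of 0.0278 in edgeR's quasi-likelihood test. This call was lost with library size as the only scaling (adjusted p = 0.119), without the filter on low counts (0.113), and when Mock replicate 1, FeSO4 replicate 1 or FeSO4 replicate 2 was left out (0.156, 0.112 and 0.112). The direction was the same in each of these.

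Because Tm7sf2 and Lbr carry the same enzyme activity, their reads were also compared within each library. Per kilobase of exon, Tm7sf2 gave 3.35 and 3.05% of the C14-reductase reads in Mock and 4.53 and 5.46% in FeSO4. The share was higher in both FeSO4 libraries, and in every library most of the C14-reductase reads were those of Lbr. The means were 3.2 ± 0.207% and 4.99 ± 0.661% (SD, n = 2 each), a difference of 1.79 percentage points. A two-sided exact permutation test gave p = 0.333, the smallest that 2 libraries against 2 allow. Without division by length the shares were 3.29% (95% Wilson interval 2.95 to 3.66) and 3.0% (2.69 to 3.34) in Mock and 4.45% (4.06 to 4.87) and 5.36% (4.96 to 5.81) in FeSO4, where the intervals cover counting error only. With the longest coding transcript as the length (1471 bases for Tm7sf2, against 3484 of joined exons), the shares were 7.58 and 6.94% in Mock and 10.1 and 12.0% in FeSO4.

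Ebp, the emopamil-binding protein, moves the double bond of the second ring from carbon 8 to carbon 7. It is X-linked (ENSMUSG00000031168, chromosome X, 8185329 to 8193512, GRCm38.p6, minus strand). Ebp was at 79.3 and 68.5 CPM in the Mock libraries, against 87.0 and 82.6 CPM with FeSO4. The groups did not overlap, but the upper Mock library was nearer to the FeSO4 libraries than to the other Mock library. The means were 73.9 ± 7.69 and 84.8 ± 3.17 CPM (SD, n = 2 each). With a log2 fold change of 0.20 ± 0.08 (SE, 95% interval 0.03 to 0.37), Ebp had an unadjusted p of 0.0259 and an adjusted p of 0.0991, and so was not called. With replicate number as a block in the same test, Ebp had a log2 fold change of 0.20 and an adjusted p of 0.0335, and was called. Its value moved with the Mock library left out. Without Mock replicate 1 the log2 fold change was 0.30 (adjusted p = 0.0211), and without Mock replicate 2 it was 0.10 (adjusted p = 0.483).

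Sc5d, the sterol C5-desaturase, is an enzyme of the endoplasmic reticulum that uses iron and takes its electrons from cytochrome b5. It lies on chromosome 9 (ENSMUSG00000032018, 42251592 to 42264300, GRCm38.p6, minus strand). Sc5d was at 62.4 and 61.1 CPM in the Mock libraries, against 92.6 and 102.4 CPM with FeSO4. The Mock libraries were nearly level, and both FeSO4 libraries stood well above them. The mean rose from 61.7 ± 0.907 to 97.5 ± 6.87 CPM (SD, n = 2 each). On the log2 scale this was 0.66 ± 0.08 (SE, 95% interval 0.50 to 0.82), with an adjusted p of 1.42e-05. Of the genes tested, 94.6% had a smaller log2 fold change. Among the 5 genes, only the Sc5d transcript aligned at another place in the mm9 genome in a minimap2 search, over 1638 of its 2249 bases at 77.6% identity (chromosome 6, 66233381 to 66234852).

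Dhcr7 encodes 7-dehydrocholesterol reductase, whose substrate is also the precursor of vitamin D. It lies on chromosome 7 (ENSMUSG00000058454, 143823167 to 143848410, GRCm38.p6, plus strand). Dhcr7 was at 38.5 and 36.3 CPM in the Mock libraries, against 62.7 and 62.0 CPM with FeSO4. The libraries agreed within each group, and the gap between groups was far wider than the distance between replicates. The mean rose from 37.4 ± 1.57 to 62.4 ± 0.474 CPM (SD, n = 2 each). Its log2 fold change of 0.74 ± 0.08 (SE, 95% interval 0.57 to 0.91) had an adjusted p of 9.52e-06 in edgeR's quasi-likelihood test. This was the smallest p of the 5 genes, rank 102 among all genes tested, followed by Sc5d at rank 121, Tm7sf2 at 476, Lbr at 2071 and Ebp at 3593.

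**Figure D1:**
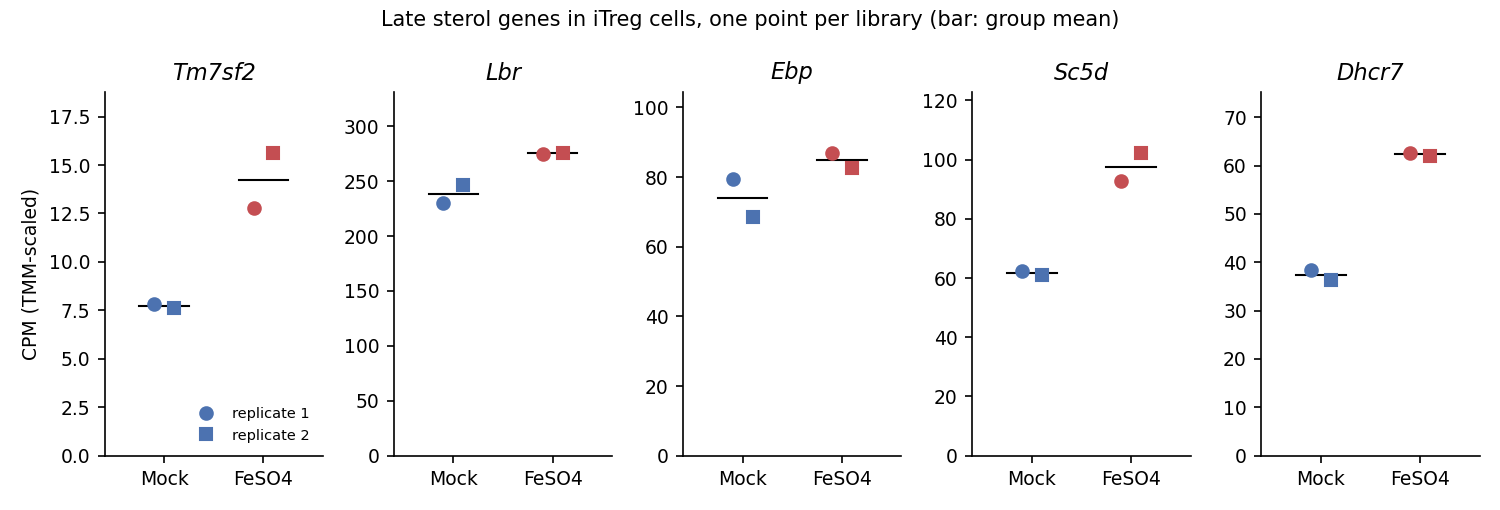
Level of each late sterol gene in CPM (linear axes from 0, TMM-scaled) in the 2 Mock and 2 FeSO4 libraries. Circles are replicate 1, squares are replicate 2 and bars are group means. In every panel both FeSO4 points lie above both Mock points, with the narrowest gap for Ebp (79.3 CPM in Mock replicate 1 against 82.6 CPM in FeSO4 replicate 2).

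Of the 5 genes, 4 were called higher at an adjusted p under 0.05, and none lower. With replicate number as a block, Ebp was called too and the count was 5. The count was 3 with library size only, without the filter on low counts, and without either FeSO4 library, because Lbr was then not called, and also at an adjusted p under 0.01. Without Mock replicate 1 it was 4, with Ebp in place of Lbr. Over all 13732 genes tested, 10.9% were called higher and 9.17% lower. By the limits the study used (p under 0.05 without adjustment, log2 change of 0.5 or more) 3 of the 5 were higher, Tm7sf2, Sc5d and Dhcr7, against 4.67% of all genes. Both FeSO4 libraries were above both Mock libraries for 5 of 5 genes, against 30.1% of all genes. The median log2 fold change of the 5 was 0.66, and that of all genes tested was -0.00052. The share of tested genes with a smaller log2 fold change was 96.6% for Tm7sf2, 95.4% for Dhcr7 and 94.6% for Sc5d. For Lbr it was 77.2% and for Ebp 75.9%. The median absolute log2 fold change of all genes tested was 0.2, and Lbr (0.21) and Ebp (0.20) were near it.

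The group was not uniform in size. The 95% intervals of Lbr and Ebp ended at 0.34 and 0.37, below the lowest bound of the other three, 0.50 for Sc5d. The difference between genes was not tested. Ratios of reads within a library, which no scaling between libraries touches, show how the genes moved against each other. They are not corrected for length, so only their shift between groups is read. The ratio of Ebp to Sc5d was 1.27 and 1.12 in Mock and 0.94 and 0.807 in FeSO4, lower in both FeSO4 libraries. The ratio of Sc5d to Dhcr7 was 1.62 and 1.68 in Mock and 1.48 and 1.65 in FeSO4, and the groups overlapped. Likewise, the ratio of Ebp to Lbr was 0.345 and 0.277 in Mock and 0.317 and 0.299 in FeSO4, with the FeSO4 values between the Mock values. For Tm7sf2 to Dhcr7 it was 0.203 and 0.21 in Mock and 0.204 and 0.252 in FeSO4, again with overlap. For Tm7sf2 to Sc5d it was 0.125 in both Mock libraries and 0.138 and 0.153 in FeSO4, higher in both FeSO4 libraries.

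To compare levels between genes, CPM was divided by the length of the joined exons in kilobases (RPKM). In Mock the order was Lbr (67.1 ± 3.35 RPKM), Ebp (32.0 ± 3.33), Sc5d (26.5 ± 0.39), Dhcr7 (9.88 ± 0.415) and Tm7sf2 (2.22 ± 0.0375; SD, n = 2 each). Libraries of neighbouring genes in this order did not overlap. In FeSO4 the levels were 77.5 ± 0.229 RPKM for Lbr, 41.9 ± 2.95 for Sc5d, 36.7 ± 1.37 for Ebp, 16.5 ± 0.125 for Dhcr7 and 4.08 ± 0.58 for Tm7sf2 (SD, n = 2 each). Lbr thus stood highest and Tm7sf2 lowest in both groups. The place of Sc5d above Ebp in FeSO4 depended on the length used. Per kilobase of the longest coding transcript Ebp was at 48.7 ± 1.82 RPKM and Sc5d at 43.4 ± 3.05 RPKM (SD, n = 2 each), and Ebp stood above Sc5d in every library.

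**Figure D2:**
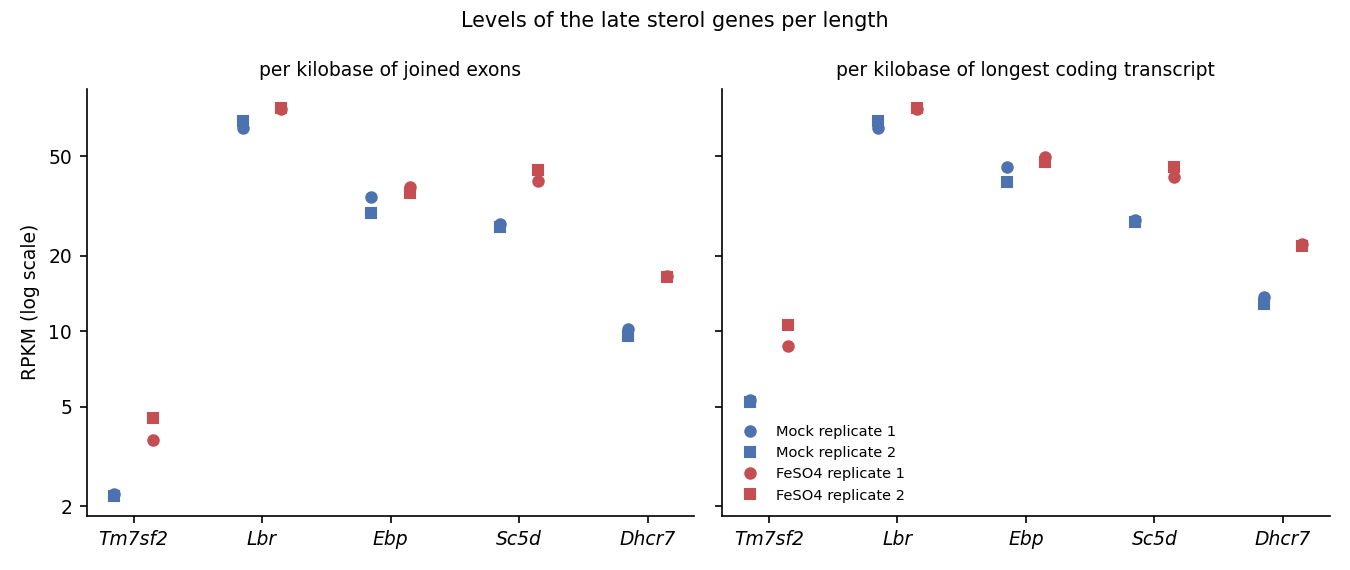
Levels per length (RPKM, log axis) of the 5 genes, 1 point per library, with Mock in blue and FeSO4 in red; circles are replicate 1 and squares replicate 2. The left panel divides by joined exons and the right panel by the longest coding transcript, where Tm7sf2 in Mock is at 5.25 RPKM on average in place of 2.22 and the order of Ebp and Sc5d in FeSO4 is turned.

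As the nearest steps of the pathway, 7 enzymes of squalene synthesis, lanosterol synthesis and C14 and C4 demethylation were read as a list. The C4 demethylation enzymes among them (Msmo1, Nsdhl and Hsd17b7) act between the C14-reductases and Ebp. All 7 of the list were called higher, against 10.9% of all genes tested. Their median log2 fold change was 1.02, and that of the late genes was 0.66. The smallest p belonged to Cyp51 (1.19, adjusted p = 2.47e-09), the C14 demethylase whose product Tm7sf2 and Lbr reduce, followed by Sqle (0.98, adjusted p = 4.71e-08), the squalene epoxidase, Msmo1 (1.17, adjusted p = 6.61e-08), the C4 methyl oxidase listed as Sc4mol, and Fdft1 (0.91, adjusted p = 2.31e-07), the squalene synthase. The 95% intervals of all 7 lay above those of Lbr and of Ebp, 5 of 7 above that of Sc5d, 2 of 7 above that of Dhcr7 and 0 of 7 above that of Tm7sf2. Of 8 tested mevalonate genes 7 were called higher and none lower (median 0.83), and the intervals of 7 of 8 lay above those of Lbr and Ebp. The exception was Ggps1 (0.07, adjusted p = 0.704), which makes geranylgeranyl diphosphate on a branch that leaves the sterol path. Of the same 8 intervals, 2 lay above that of Sc5d, 2 above that of Dhcr7 and 0 above that of Tm7sf2. The interval of Ggps1 lay below those of Sc5d, Dhcr7 and Tm7sf2.

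**Figure D3:**
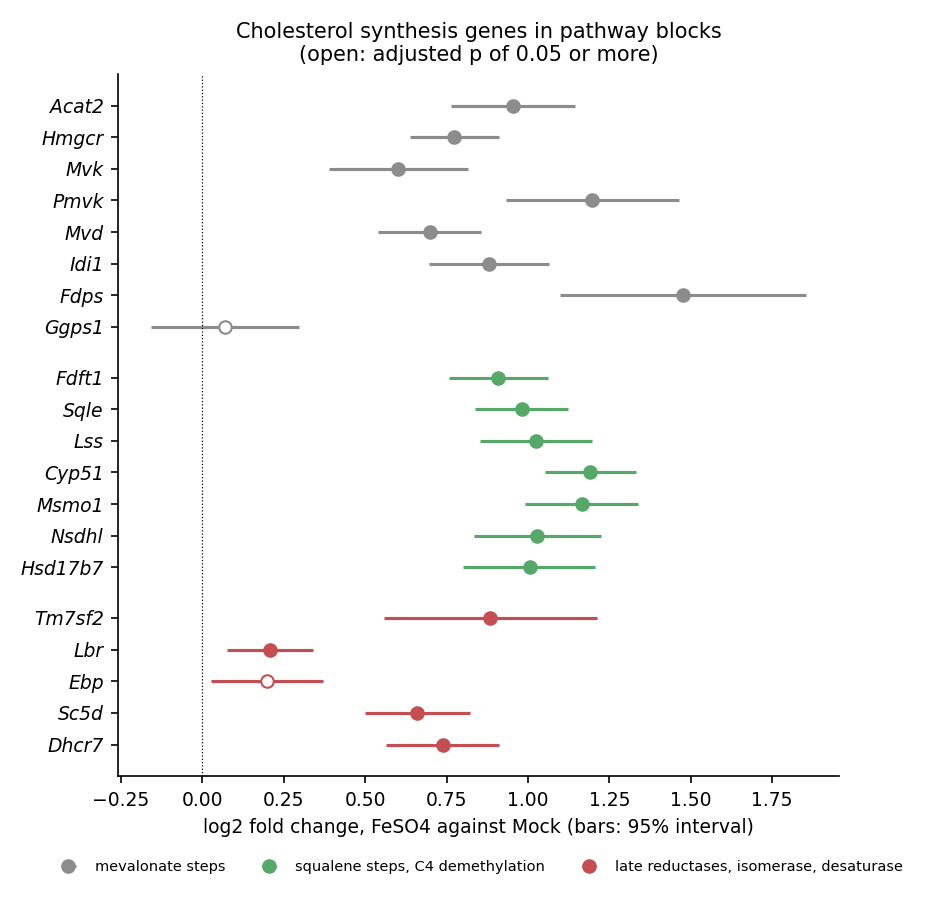
Log2 fold change (FeSO4 against Mock) of cholesterol synthesis genes in pathway blocks, with 95% intervals as bars; filled points have an adjusted p under 0.05. Lbr (0.21) and Ebp (0.20) lie to the left of the other late genes, and Ggps1 (0.07) is the only gene whose interval crosses 0.

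Among 7 tested genes of SREBP control, 3 were called higher and 1 lower, with a median of 0.26. Over all genes tested, 10.9% were called higher and 9.17% lower. Insig1, which holds SREBP back in the endoplasmic reticulum, rose by 0.97 (adjusted p = 6.86e-08) and Srebf1 by 0.82 (adjusted p = 1.63e-07). Srebf2, which encodes SREBP-2, rose by 0.36 (adjusted p = 0.000412). On the same log2 scale this was less than Sc5d, Dhcr7 or Tm7sf2 and more than Lbr (0.21) or Ebp (0.20). Scap, which escorts SREBP to the Golgi, fell by 0.30 (adjusted p = 0.00646). For comparison with Sc5d, genes of cytochromes b5, their reductases and the P450 reductase Por were read as a list. Of 5 tested, 3 were called higher and none lower, with a median of 0.32, namely Cyb5b (0.45, adjusted p = 0.000121), the form of the outer mitochondrial membrane, Cyb5a (0.39, adjusted p = 0.00138), the form of the endoplasmic reticulum, and Cyb5r1 (0.32, adjusted p = 0.0497). Each of these log2 fold changes was smaller than that of Sc5d.

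For comparison with Lbr, 12 genes of the nuclear lamina and inner nuclear membrane were read. Of these, 2 were called higher, 1 lower and 9 were not called, with a median of 0.10. Over all genes tested, 10.9% were called higher and 9.17% lower, so these counts are near that share. Lmna, the A-type lamin, was at 165 and 129 CPM in the Mock libraries, against 302 and 260 CPM with FeSO4 (log2 fold change 0.93, adjusted p = 3.53e-06), and Banf1 rose by 0.35 (adjusted p = 0.00262), while Sun2 fell by 0.41 (adjusted p = 9.84e-05). Lmnb1, the B-type lamin that Lbr binds, had a log2 fold change of 0.17 (adjusted p = 0.0564) and was not called. Lbr had 0.21, and both were near the median absolute log2 fold change of all genes tested, 0.2. For comparison with Ebp, 6 genes of sterol and drug binding proteins were read, of which 3 were called higher and none lower (median 0.33). Tmem97, a member of the same protein family as Ebp, rose by 0.85 (adjusted p = 4.46e-06), and Ebpl, the Ebp-like gene, had a log2 fold change of 0.32 (adjusted p = 0.0949).

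The genes whose profile over the 4 libraries lay closest to the mean profile of the 5 were sought among 7968 named genes of at least 10 CPM, with clone and model numbers and the 5 genes themselves passed over, by the root mean square distance of centred log2 CPM. They were Plod2 (0.014), Cebpg (0.0154), Stx11 (0.0222), Manf (0.0225) and Hmga1 (0.0237). The 5 genes themselves lay further from their own mean, at 0.0669 for Sc5d, 0.107 for Dhcr7, 0.173 for Lbr, 0.183 for Ebp and 0.184 for Tm7sf2. Taken singly, the closest gene to Dhcr7 was Mvd (0.0293), the mevalonate diphosphate decarboxylase. It was Ighm (0.015) for Sc5d, Papln (0.0341) for Tm7sf2, Rpl9 (0.00918) for Lbr and Polr2c (0.00528) for Ebp. Ighm, the immunoglobulin mu heavy chain gene that B cells express, was at 165 and 159 CPM in the Mock libraries, against 245 and 275 CPM with FeSO4 (log2 fold change 0.68, adjusted p = 3.75e-06), while the 3 B cell markers above summed to at most 3.23 CPM. Its part in the values of Sc5d was not tested. With 4 points per gene, these distances are a description only.

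**Figure D4:**
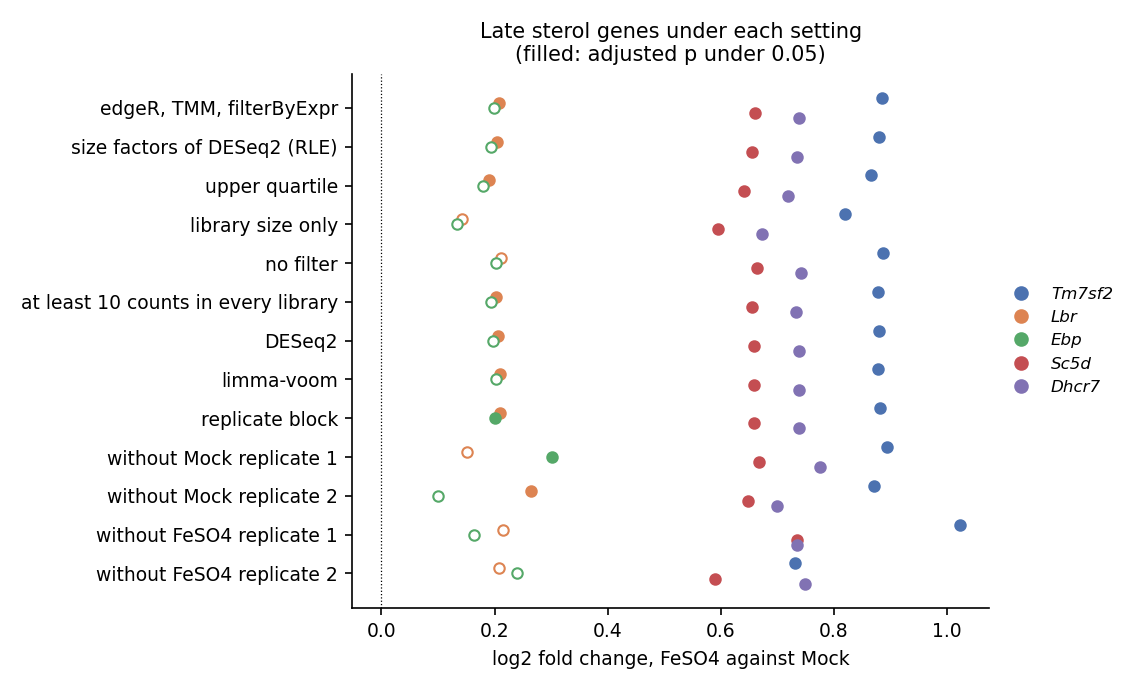
Log2 fold change of the 5 genes (x axis) in the reported fit and under each of 12 alternatives (y axis); filled points have an adjusted p under 0.05. Tm7sf2, Sc5d and Dhcr7 stay filled throughout (0.73 to 1.02, 0.59 to 0.73 and 0.67 to 0.77 over the alternatives), while Lbr is open in 5 of the 12 and Ebp is filled in 2 of the 12.

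Over 12 alternatives (scalings, filters, tools, a replicate block and left-out libraries), Tm7sf2, Sc5d and Dhcr7 kept their direction and their call. Lbr kept its direction in all 12 and its call in 7. Ebp kept its direction in all 12 and passed the test in 2 of them.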

How the data were processed

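The deposited values were raw counts of reads per Ensembl gene, which the authors had not normalized, 1 column per library. The study's methods name STAR and build mm9, whereas the submitters' processing notes list mm10, Trim Galore 0.6.7, STAR 2.7.9a and featureCounts. The annotation and strand setting used for counting are not given in the sources used here, so overlapping genes and antisense reads cannot be separated. Of the gene IDs, 14930 (0.755% of counts) had no symbol in the mm9 annotation, and Hmgcs1 was not matched and is not analysed here. The 5 closing rows of unassigned reads entered neither library sizes nor tests. They included reads with several alignments, 4.27 to 4.62% of a library.

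Counts were analysed in R 4.3.3 with edgeR 4.0.16: filterByExpr (13732 genes, 99.95% of counts), TMM, and the two-sided quasi-likelihood test with Benjamini-Hochberg adjustment over all genes tested. The SE is the absolute log2 fold change divided by the square root of F. A count of 3, the most that a count of 0 allows, was 0.0717 to 0.0876 CPM, for counting error only. Chi-square per degree of freedom between replicates was 11.3 (Mock) and 9.02 (FeSO4), above sampling noise in both groups. DESeq2 1.42.0, limma-voom (limma 3.58.1), other scalings and filters, a replicate block and each library left out were alternatives. Transcripts were aligned to mm9 with minimap2 2.31, and the permutation test used scipy 1.17.1. The fit was tested on simulated data.

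The text names the 5 genes, per list at most 4 genes by smallest p with others that a comparison turned on (chosen after their values were seen: Ggps1 and 1110014N23Rik), and the nearest profiles. The members and lists were chosen with earlier results of these data known, and some listed genes are not reported here.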

Additional observations from a re-analysis of the deposited data

How the results depend on the processing

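The log2 fold changes of Tm7sf2, Sc5d and Dhcr7 kept direction and call in each of the 12 alternatives (adjusted p at most 0.0366, 0.0168 and 0.0117). Lbr had 0.14 with library size only (adjusted p = 0.119) and 0.21 without the filter (adjusted p = 0.113), and 0.15 to 0.26 with 1 library left out. Ebp ranged from 0.10 to 0.30 with 1 library left out. Genes called higher numbered 980 with library size only, 524 without the filter and 789 at an adjusted p under 0.01, and 893 to 1199 with 1 library left out. Genes called lower numbered 1810 with library size only, 304 without the filter and 597 at an adjusted p under 0.01, and 710 to 1158 with 1 library left out. The share of calls that were higher was 54.2% under TMM and 35.1% with library size only. With 1 library left out, the lone library is assumed to vary like the other group. The difference in the Tm7sf2 share was 3.8 points with the longest coding transcript as length, an alternative chosen after seeing the data. The cause of these shifts was not tested.

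The methods describe 2 pairs from 2 experiments, but the labels do not tie replicate numbers to them, and same-numbered libraries did not clearly deviate together (r = 0.0293 across 13732 genes, 0.22 across 8522 genes of at least 10 CPM; genes are not independent replicates). With the replicate block, 1847 genes were called higher and 1580 lower, against 1491 and 1259 in the reported fit. In the block fit, Ebp had a log2 fold change of 0.20 and an adjusted p of 0.0335. All 5 genes were then called higher in place of 4, and no other call among them changed.

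Tm7sf2 had the fewest reads among the late sterol genes, and 2 libraries per group limit every value.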
